A study of Mus musculus with 17 samples.

Results

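The nuclear genes for the complexes of oxidative phosphorylation were measured in colon tumors of mice with and without the Janus kinase Tyk2. Members were chosen by symbol: protein-coding genes whose mouse symbols start with Nduf followed by a, b, c, s or v and a number, Sdh followed by a to d, Uqcr, Cox with a number from 4 to 8 and a letter from a to c, or Atp5, and that had at least 10 counts in at least 3 of the 17 libraries. Of 55421 genes, 95 symbols matched, 83 of them were protein-coding and 78 became members: 37 of complex I, 4 of complex II, 8 of complex III, 12 of complex IV and 17 of complex V. All 78 reached the minimum in every library, so that no member entered through 1 group. The 5 genes below it were a second identifier of Atp5o and Cox8c with 0 counts in every library, Cox6a2 with 0 to 3, Cox7b2 with 0 to 1 and Cox8b with 0 to 6. Just inside it were Ndufa4l2 with 14 to 109 counts and Cox6b2 with 81 to 411. The 78 members lie on 19 chromosomes. Complexes were assigned by symbol, and 4 members do not belong where their symbols put them or are no subunits: Ndufa4 is now counted in complex IV, Ndufa4l2 is its paralog, Cox7a2l helps to join complexes III and IV, and Atp5s is a coupling factor.

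Tumors came from C57BL/6 mice that had received azoxymethane, a mutagen injected into the peritoneum, and repeated cycles of drinking water with dextran sulfate sodium, which injures the colon epithelium. In the first experiment, Tyk2Δ/Δ mice (Tyk2KO in the labels), which carry the deleted allele in every cell, were compared with Tyk2+/+ mice (Tyk2wt), both from intercrosses of heterozygous Tyk2Δ/+ animals, with 3 libraries per genotype. In the second, Tyk2ΔIEC mice (Tyk2DIEC), in which Villin-cre deletes the floxed allele in intestinal epithelial cells, were compared with Tyk2fl/fl mice (Tyk2fl) without cre, with 4 and 7 libraries. All 11 libraries of the second experiment therefore carry the floxed allele, and those of the first do not. Age and sex of the mice are not given in the labels. RNA came from dissected tumors that hold stroma and immune cells beside the epithelium, so that fewer cells of a type and less RNA per cell cannot be told apart, and the deletion in Tyk2ΔIEC mice concerns the epithelial share alone. Neither the labels nor the methods say that each library came from a separate mouse, so the p-values below measure the spread between these libraries, part of which may be technical.

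Oxidative phosphorylation takes place at the inner mitochondrial membrane. Complexes I and II pass electrons from NADH and succinate to ubiquinone, complex III passes them on to cytochrome c, and complex IV to oxygen. Complexes I, III and IV pump protons, and complex V, the ATP synthase, uses their return to make ATP. All complexes but complex II also contain subunits encoded by mitochondrial DNA, so that nuclear and mitochondrial transcripts have to supply a joint product. Colonocytes are known to burn butyrate from the gut bacteria by this route, while tumor cells often rely more on glycolysis.

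Total counts ran from 19129696 to 21707373 in Tyk2+/+, Tyk2Δ/Δ and Tyk2ΔIEC libraries and from 29777763 to 35427965 in Tyk2fl/fl libraries, and the members took 1.16 to 1.61% of them. The Tyk2 gene itself (chr9:21104068-21131243) had 1092 to 1199 counts in Tyk2+/+ and 1177 to 1257 in Tyk2Δ/Δ libraries, and 1359 to 1943 in Tyk2fl/fl and 1020 to 1113 in Tyk2ΔIEC libraries. Its counts include the exons outside the deleted exon 3 and therefore check no label. Counts of Xist, the RNA that coats the inactive X chromosome, were 40656 to 45446 in Tyk2fl/fl replicates 1 to 3 and 2 to 106 in the other 14 libraries, so that only the Tyk2fl/fl group holds both high and low Xist. Libraries also differed in the balance of short and long transcripts, measured over protein-coding genes other than the members as the median deviation of 922 genes of up to 1000 bases minus that of 6882 genes of over 3000 bases, on the log2 scale. It was -0.36 to -0.18 in Tyk2ΔIEC and 0.01 to 0.49 in Tyk2fl/fl libraries, with no overlap, and -0.12 to -0.07 in Tyk2Δ/Δ against -0.11 to 0.20 in Tyk2+/+ libraries. Most member transcripts are short (315 to 3171 bases, median 760.5, against a median of 2876 for the 14600 other protein-coding genes tested in Tyk2ΔIEC tumors), so this balance stands beside every result on them below.

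Levels between genes were compared as mean CPM (counts relative to library size, with TMM factors, a trimmed-mean scaling) per kilobase of the principal transcript over the 17 libraries. The highest members were Atp5b, the catalytic β subunit of the ATP synthase, with 843 CPM per kilobase, and Atp5g3, a gene for its membrane ring, with 704. Among genes put in complex I by symbol, Ndufa4 (488) was the highest and Ndufa4l2 (1.68) the lowest. Among complex II genes Sdhd (203) was the highest and Sdhc (59.5) the lowest. In complex III, Uqcrh, the hinge protein next to cytochrome c1, led with 498 and Uqcrq closed with 112. Among genes put in complex IV by symbol, Cox5a led with 480.2, below the 488 of Ndufa4, which is now counted in that complex.

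Several subunits have paralogs that are restricted to heart and skeletal muscle or to testis. The ubiquitous form was the higher in each such pair: Cox6a1 had 401 CPM per kilobase while Cox6a2, the muscle form, had at most 3 counts in a library. Cox7a2 had 265 and the muscle form Cox7a1 26.1. Cox6b1 had 407 and the testis form Cox6b2 12.8, and Cox8a had 399.7 while Cox8b had at most 6 counts. The 3 genes for the identical ring subunit of complex V were unequal, with 704 for Atp5g3, 146 for Atp5g1 and 31.6 for Atp5g2. Of the windows of 75 bases, the read length, in the Atp5g1 and Atp5g2 transcripts, 59.6% and 86.9% also occur in another annotated transcript, so that reads of unique alignment can undercount both genes. The same holds for Atp5l (76.0%), Cox7c (50.4%) and Atp5h (40.3%), which were not named by the rule fixed for single genes. Atp5o, which the rule named, shared 39.1%, with its second identifier as the largest part (22.1%). Windows shared with a gene at the same place, on either strand, were not told apart from those shared with copies elsewhere. In all, 22 members shared over 10% of their windows and 44 shared none.

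Promoters of these genes are known for binding sites of nuclear respiratory factor 1 (NRF1) and of GABP (also called NRF2), which couple the nuclear genes to mitochondrial content. RefSeq sequences for GRCm38.p6, from 250 bases before to 50 after the start, were matched to 63 of the 78 members, with starts at most 500 bases apart in both annotations. A window of 300 bases was searched on both strands for exact letters. GCGCANGCG, the core of the NRF1 motif, occurred in 19 of 63 members (30.2%) and in 9.38% of 16070 promoters of protein-coding genes, and CCGGAAG, the core of the GABP motif, in 15 (23.8%) against 12.5%. The core of the YY1 motif, AAGATGGCG, occurred in 5 members (7.94% against 2.12%), TGACGTCA, bound by CREB, in 4 (6.35% against 2.46%), TCAAGGTCA, bound by estrogen-related receptors, in 2 (3.17% against 0.324%), and the E-box CACGTG in 5 (7.94% against 8.20%). NRF1 letters overlapping on both strands were marked as 2 matches, and no other pair of motifs was merged. Among the 44 matched members that were lower in Tyk2ΔIEC tumors (described further on), 13 held the NRF1 and 11 the GABP letters, and among the 19 others 6 and 4.

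Upstream sequences are printed for 1 member of each complex, the one with the smallest p in Tyk2ΔIEC tumors among those with an NRF1 or GABP match before the start, to show where these letters lie in genes that were followed. They run 5′ to 3′ on the gene's strand up to the start that lies further upstream in RefSeq or in the gene annotation, with motif matches in capitals. A match on the opposite strand reads as its reverse complement.
Ndufa11, chr17:56717512-56717761, plus strand: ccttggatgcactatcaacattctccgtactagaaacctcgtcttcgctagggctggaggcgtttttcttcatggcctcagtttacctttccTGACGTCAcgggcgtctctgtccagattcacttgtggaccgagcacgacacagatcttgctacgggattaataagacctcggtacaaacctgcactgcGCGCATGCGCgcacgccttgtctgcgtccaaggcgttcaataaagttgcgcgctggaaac
Sdha, chr13:74350281-74350490, minus strand: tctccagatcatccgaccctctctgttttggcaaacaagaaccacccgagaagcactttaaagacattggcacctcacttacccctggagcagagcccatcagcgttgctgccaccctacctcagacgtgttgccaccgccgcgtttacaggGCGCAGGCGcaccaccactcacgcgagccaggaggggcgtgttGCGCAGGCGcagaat
Uqcr11, chr10:80406831-80407071, minus strand: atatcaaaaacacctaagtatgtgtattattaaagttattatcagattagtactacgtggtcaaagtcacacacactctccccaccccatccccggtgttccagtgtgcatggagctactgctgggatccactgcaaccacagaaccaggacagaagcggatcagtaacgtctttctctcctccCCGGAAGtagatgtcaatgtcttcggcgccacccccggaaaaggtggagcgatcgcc
Cox6a1, chr5:115348982-115349208, minus strand: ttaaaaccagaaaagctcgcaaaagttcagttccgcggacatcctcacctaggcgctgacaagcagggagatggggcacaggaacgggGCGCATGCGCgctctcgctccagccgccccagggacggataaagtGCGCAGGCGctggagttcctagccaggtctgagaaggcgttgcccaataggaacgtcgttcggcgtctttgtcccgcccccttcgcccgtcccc
Atp5e, chr2:174464106-174464351, minus strand: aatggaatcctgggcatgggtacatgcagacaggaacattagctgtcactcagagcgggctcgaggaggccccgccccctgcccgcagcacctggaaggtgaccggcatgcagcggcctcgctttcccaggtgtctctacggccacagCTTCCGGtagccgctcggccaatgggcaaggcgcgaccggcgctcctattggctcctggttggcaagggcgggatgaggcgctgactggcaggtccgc

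In Ndufa11, the NRF1 letters begin 60 bases before the RefSeq start on one strand and 59 on the other, and a palindromic CREB site begins 158 bases before it. Sdha holds NRF1 letters that begin 98 and 55 bases before the start, and Cox6a1 has them at 162, 161 and 117 bases. Uqcr11 and Atp5e each hold 1 GABP match, which begins 66 and 102 bases before the start. A match is a stretch of letters and was not tested for binding in these tumors.

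Levels of whole complexes, as the mean of log2 CPM over their members, had a lower mean in Tyk2ΔIEC than in Tyk2fl/fl libraries for every complex. Complex I was 6.35 ± 0.16 (SD, n = 7) in Tyk2fl/fl and 5.99 ± 0.08 (n = 4) in Tyk2ΔIEC libraries, and the ranges of 6.18 to 6.65 and 5.91 to 6.10 did not overlap. Complex IV was 6.89 ± 0.18 and 6.48 ± 0.15, complex III 7.56 ± 0.20 and 7.24 ± 0.10, and complex V 7.30 ± 0.15 and 7.05 ± 0.07. The ranges of complex IV did not overlap either (6.68 to 7.20 and 6.31 to 6.67), while those of complexes II, III and V did. For complex II the means of 7.72 ± 0.15 and 7.62 ± 0.08 lay within 1 SD of the Tyk2fl/fl libraries. In the first experiment complex I was 6.28 ± 0.15 in Tyk2+/+ and 6.14 ± 0.05 in Tyk2Δ/Δ libraries (n = 3 each), complex III 7.55 ± 0.14 and 7.42 ± 0.06, complex IV 6.79 ± 0.13 and 6.68 ± 0.04, complex V 7.30 ± 0.11 and 7.21 ± 0.04, and complex II 7.75 ± 0.03 and 7.75 ± 0.05, and the ranges of both genotypes overlapped for each complex. These levels are descriptions, and the tests were made gene by gene.

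**Figure D1:**
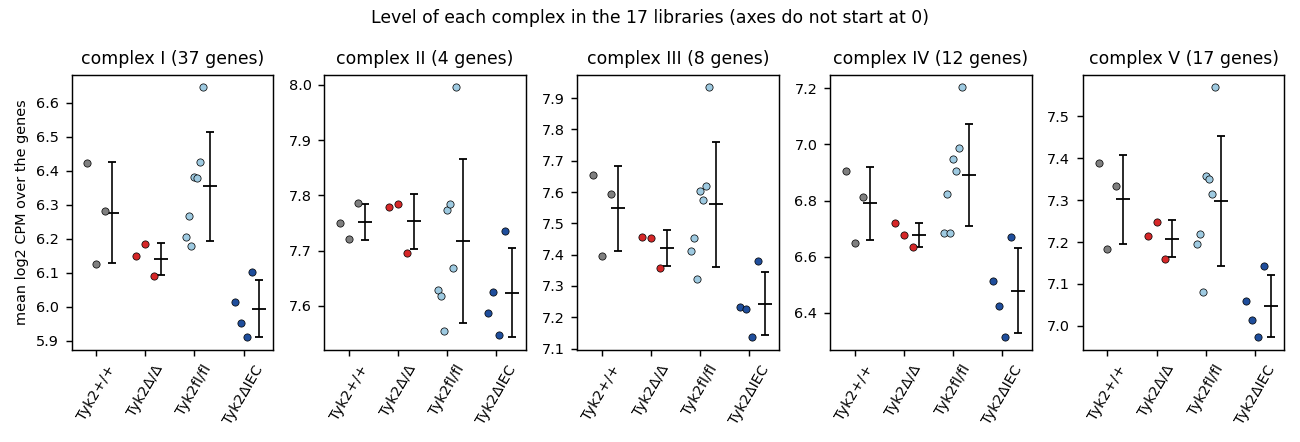
Mean log2 CPM over the members of each complex (y axis) in every library (points) by genotype, with the mean and SD of the group. Complex I libraries of Tyk2ΔIEC tumors sit at 5.91 to 6.10, below the Tyk2fl/fl libraries at 6.18 to 6.65, while complex II overlaps.

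The comparison of Tyk2ΔIEC with Tyk2fl/fl tumors asks what the loss of Tyk2 in epithelial cells changes. Here 50 of 78 members were lower and 1 was higher at an adjusted p under 0.05 (edgeR quasi-likelihood F test, Benjamini-Hochberg adjustment over 17668 genes), against 9.71% of all genes tested that were lower and 10.2% that were higher. In 34 members every Tyk2ΔIEC library lay below every Tyk2fl/fl library, against 7.81% of all genes, and in 0 members above, against 7.73%. The changes were small: the median log2 fold change of the 78 members was -0.365, that of all genes 0.00, 72 members were below 0, and none passed 2-fold. Without the 4 members that are no subunits of the complex in their symbol, 48 of 74 were lower and 1 was higher. Without the 22 members that shared over 10% of their windows, 36 of 56 were lower and 1 was higher. Leaving out Tyk2ΔIEC replicate 3 left 25 members lower and leaving out replicate 2 left 30, and these libraries had the lowest mean member levels (6.41 and 6.47 log2 CPM). Without any other single library 41 to 56 were lower. The shares of all genes called in these refits are not given here.

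**Figure D2:**
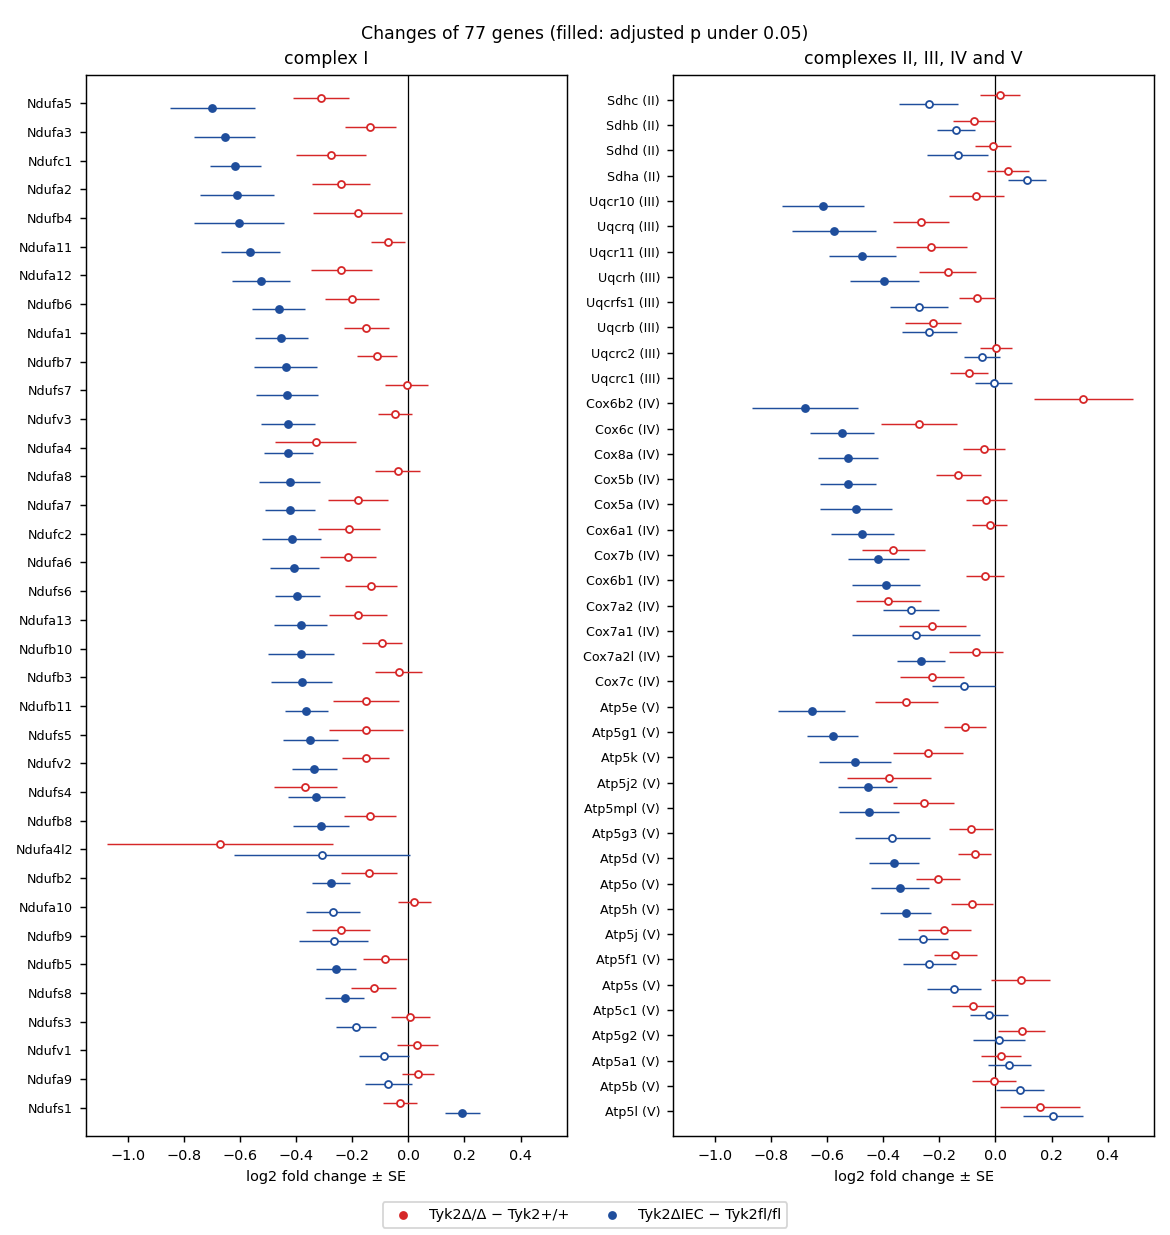
Log2 fold changes (x axis) of 77 of the 78 members (points) by complex in Tyk2Δ/Δ against Tyk2+/+ and in Tyk2ΔIEC against Tyk2fl/fl tumors, with their SE (bars); filled points are called at an adjusted p under 0.05. In Tyk2ΔIEC tumors 50 members are called lower and 1 higher, in Tyk2Δ/Δ tumors none.

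The size of the decrease moved with transcript length. Of 51 members of up to 1000 bases, 41 were lower (80.4%, median log2 fold change -0.42), and of the 935 other protein-coding genes of that length 331 were lower (35.4%, median -0.30). Of the 27 longer members 9 were lower. By length class the medians of members and of other genes were -0.47 and -0.45 up to 500 bases, -0.41 and -0.34 up to 750, -0.38 and -0.28 up to 1000, -0.22 and -0.19 up to 1500, and -0.17 and -0.10 up to 2000 bases. Over 5000 bases, where no member lies, other genes had a median of 0.21. The share called lower was higher among members than among other genes in each of these 5 classes (88.9% and 38.1%, 75.9% and 39.1%, 84.6% and 32.6%, 41.7% and 22.4%, 40.0% and 13.3%), a description that was not tested. Across the 78 members, Spearman's rho between transcript length and log2 fold change was 0.56 (transcripts of the same libraries, given as a description).

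When an offset per library for transcript length, fitted over all protein-coding genes and chosen after the data had been seen, was added to the same test, 7 members were lower and 5 were higher, and the median was -0.04. In that fit 4.64% of 14678 genes were lower and 5.14% were higher, so that the share of members called higher was near that of all genes. The 7 were Ndufa3, Ndufa5, Ndufa12, Ndufv3, Uqcrq, Cox5b and Atp5g1, all lower in both fits. The other members called lower without the offset were not called with it, also where its value is not printed below. The 5 were Uqcrb, Cox7c, Atp5c1, Atp5g2 and Atp5l, none of which was called in the fit without the offset and 4 of which share over 10% of their windows with other transcripts. Ndufa12, Cox7c, Atp5c1 and Atp5l were named after their values had been seen. Since the length balance of the libraries did not overlap between the groups either, genotype and balance cannot be told apart in this comparison. Within the groups the members also followed the balance: Tyk2fl/fl replicate 7, with the highest balance (0.49), had the highest mean member level, 7.13 log2 CPM, and Tyk2ΔIEC replicate 3, with the lowest (-0.36), the lowest level, 6.41.

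**Figure D3:**
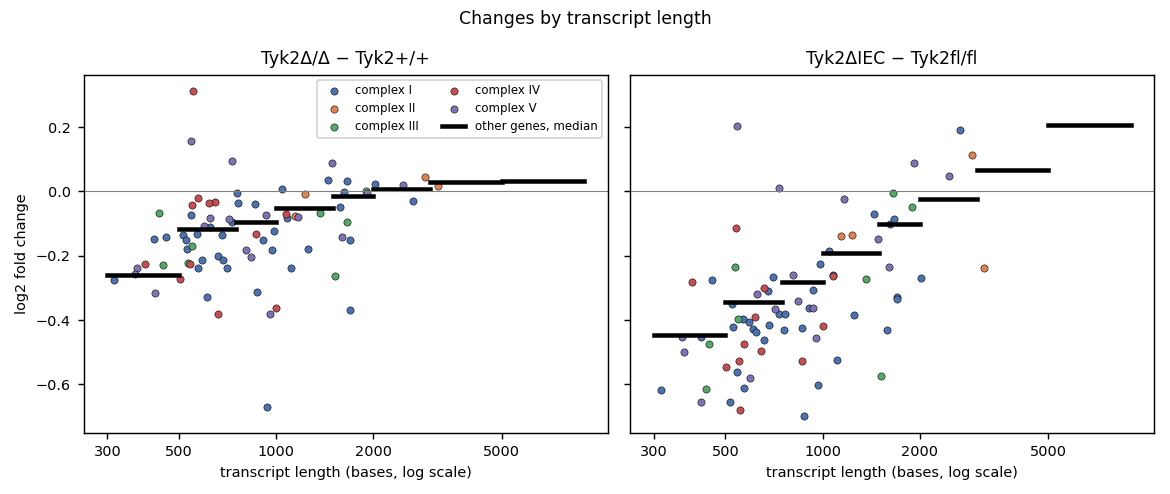
Log2 fold change of each member (points, coloured by complex) by length of its principal transcript in bases (x axis, log scale) in Tyk2Δ/Δ against Tyk2+/+ (left) and Tyk2ΔIEC against Tyk2fl/fl tumors (right), with the median of other protein-coding genes per length class (black lines). On the right the median of other genes falls from 0.21 above 5000 bases to -0.45 up to 500 bases, and members of up to 500 bases have a median of -0.47.

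**Figure D4:**
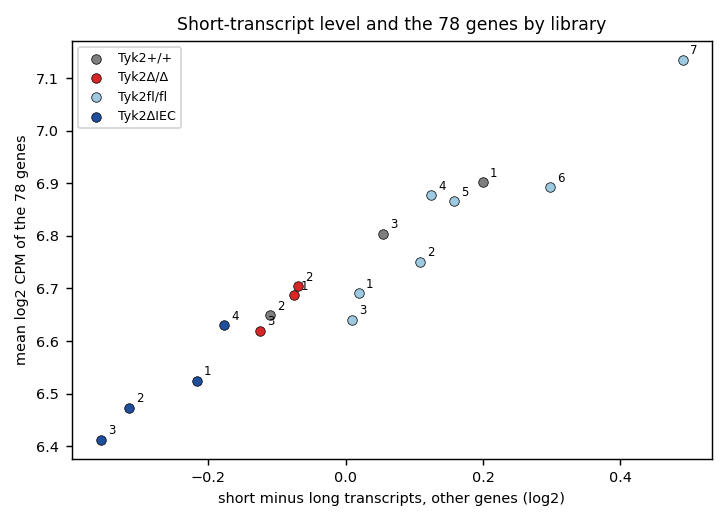
Mean log2 CPM of the 78 members (y axis) by the short minus long transcript balance of other genes (x axis, log2) in each of the 17 libraries, coloured by genotype and numbered by replicate. The 4 Tyk2ΔIEC libraries have the lowest balance, -0.36 to -0.18, and Tyk2fl/fl replicate 7 has the highest, 0.49.

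Complex I, the NADH dehydrogenase, held most of the decreased genes: 29 of 37 were lower and 1 was higher, with a median log2 fold change of -0.38. Its 30 members outside the catalytic core had 26 lower (median -0.41), and its 7 core subunits had 3 lower and 1 higher (median -0.19). Apart from Ndufa4 and Ndufa4l2, assigned here by symbol, the 30 are supernumerary subunits, which surround the core. The median transcript of complex I genes has 763 bases, and that of core genes 1623. With the length offset 4 complex I genes were lower and none was higher.

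Ndufc1 (chr3:51404677-51408988, minus strand), a small membrane subunit, had the smallest p of complex I. It was at 40.0, 37.1, 33.7 and 41.8 CPM in Tyk2ΔIEC libraries and from 51.5 to 70.5 CPM, with a median of 59.3 in Tyk2fl/fl libraries. The groups did not overlap, and the log2 fold change was -0.62 ± 0.09 (SE, adjusted p = 0.0016). Its transcript has 315 bases, the shortest of all members, and with the length offset the value was -0.09 (adjusted p = 0.308).

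Ndufa3 (chr7:3617373-3620327, plus strand), a supernumerary subunit, was at 62.9, 57.9, 53.1 and 64.8 CPM in Tyk2ΔIEC libraries. In Tyk2fl/fl libraries it ran from 78.0 to 117 CPM, with a median of 90.8, all above the Tyk2ΔIEC libraries. The log2 fold change of -0.65 ± 0.11 (SE, adjusted p = 0.00247) became -0.23 (adjusted p = 0.0185) with the length offset. Ndufa11 (chr17:56717767-56722141, plus strand), which stabilises the membrane arm, was at 46.7, 46.8, 44.3 and 50.5 CPM and ran from 60.8 to 94.1 CPM, with a median of 65.8, again without overlap, and changed by -0.56 ± 0.11 (SE, adjusted p = 0.00476). With the offset it was at -0.15 (adjusted p = 0.123).

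The largest decrease of a complex I gene was that of Ndufa5 (chr6:24518666-24528013, minus strand), a subunit of the matrix arm. Tyk2ΔIEC libraries had 40.3, 35.1, 33.9 and 43.2 CPM, below all Tyk2fl/fl libraries, which ran from 49.1 to 89.4 CPM, with a median of 58.5. Its log2 fold change was -0.70 ± 0.15 (SE, adjusted p = 0.00883), and -0.41 (adjusted p = 0.027) with the offset. Ndufv3, a small subunit of the NADH-binding module whose transcript is longer than that of most members (1582 bases), changed by -0.43 ± 0.10 (SE, adjusted p = 0.0106), without overlap of the groups, and by -0.30 (adjusted p = 0.0309) with the offset. Ndufs6, an accessory subunit with a zinc site, changed by -0.40 ± 0.08 (SE, adjusted p = 0.0069). Ndufs4, which joins late in assembly, changed by -0.33 ± 0.10 (SE, adjusted p = 0.0402), with groups that overlapped. With the offset Ndufs6 was at -0.006 (adjusted p = 0.96) and Ndufs4 at -0.21 (adjusted p = 0.139).

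The core subunits, which carry the flavin and the iron-sulfur clusters, went both ways. Ndufs1, the largest of them, was the 1 member called higher, with a log2 fold change of 0.19 ± 0.06 (SE, adjusted p = 0.0448), a transcript of 2661 bases and overlapping groups. It was named after its values had been seen, and with the offset it was at 0.19 (adjusted p = 0.0556). Among the others of the core, likewise named afterwards, Ndufs7 changed by -0.43 ± 0.11 (adjusted p = 0.0185), Ndufv2 by -0.33 ± 0.08 (adjusted p = 0.0131) and Ndufs8 by -0.23 ± 0.07 (adjusted p = 0.0375). Ndufs3 and Ndufv1 had values of -0.19 and -0.09 and were not called.

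Ndufa4, which sits in complex IV despite its symbol, was at 227, 233, 248 and 239 CPM in Tyk2ΔIEC libraries. In Tyk2fl/fl libraries it ran from 277 to 394 CPM, with a median of 316. The log2 fold change was -0.43 ± 0.09 (SE, adjusted p = 0.00739), without overlap, and -0.05 (adjusted p = 0.707) with the offset. Its paralog Ndufa4l2, a hypoxia-induced gene that was the lowest member of all, had a value of -0.31 ± 0.31 (SE, adjusted p = 0.527).

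The remaining supernumerary subunits called lower were Ndufa1, Ndufa2, Ndufa6, Ndufa7, Ndufa8, Ndufa12, Ndufa13, Ndufb2, Ndufb3, Ndufb4, Ndufb5, Ndufb6, Ndufb7, Ndufb8, Ndufb10, Ndufb11, Ndufc2 and Ndufs5, all named after their values had been seen, with log2 fold changes from -0.61 for Ndufa2 to -0.26 for Ndufb5. Ndufb9, which the rule named, had a value of -0.27 ± 0.12 (SE, adjusted p = 0.143), and Ndufa9 and Ndufa10, which it did not, of -0.07 ± 0.08 (SE, adjusted p = 0.582) and -0.27 ± 0.10 (SE, adjusted p = 0.0659). These 3 and Ndufa4l2 were the members of complex I outside the core that were not called.

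Complex II, succinate dehydrogenase, is also an enzyme of the TCA cycle and the 1 complex with no mitochondrially encoded subunit. None of its 4 genes was called in Tyk2ΔIEC tumors, the median was -0.14, and the median transcript has 2065.5 bases. At an unadjusted p under 0.05, 1 was lower and 0 higher, while 3004 of 17668 genes were lower and 3037 higher. Sdha (chr13:74322254-74350280, minus strand), the flavoprotein that oxidises succinate, was at 338, 353, 331 and 354 CPM in Tyk2ΔIEC libraries and ran from 297 to 352 CPM, with a median of 302 in Tyk2fl/fl libraries. The groups overlapped, and the log2 fold change was 0.11 ± 0.07 (SE, adjusted p = 0.251). Sdhb, the iron-sulfur subunit, had a value of -0.14 ± 0.07 (SE, adjusted p = 0.167), and the membrane anchors Sdhc and Sdhd of -0.24 ± 0.10 (SE, adjusted p = 0.123) and -0.13 ± 0.11 (SE, adjusted p = 0.415). Of the 4 genes only Sdha was above 0, and with the length offset Sdhc alone remained below it.

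In complex III, the cytochrome bc1 complex, 4 of 8 genes were lower, with a median of -0.33 and a median transcript of 955 bases. All 4 encode small subunits. Uqcr10 (chr11:4701973-4704342, minus strand), which holds on to cytochrome c1, was at 115, 118, 105 and 127 CPM in Tyk2ΔIEC libraries. The Tyk2fl/fl libraries ran from 137 to 258 CPM, with a median of 174, without overlap, and the log2 fold change was -0.62 ± 0.15 (SE, adjusted p = 0.0134). With the offset it was at -0.14 (adjusted p = 0.246).

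Uqcr11 (chr10:80402997-80406830, minus strand), the smallest subunit, was at 74.8, 67.9, 62.1 and 74.8 CPM, against a range from 80.3 to 131 CPM, with a median of 92.4 in Tyk2fl/fl libraries. It changed by -0.47 ± 0.12 (SE, adjusted p = 0.0167) without overlap, and with the offset it was at -0.01 (adjusted p = 0.894). Uqcrq (chr11:53427922-53430831, minus strand), which contacts cytochrome b, was at 132, 129, 122 and 152 CPM and ran from 158 to 293 CPM, with a median of 188 in the controls, with a change of -0.57 ± 0.15 (SE, adjusted p = 0.0194) and of -0.43 (adjusted p = 0.0476) with the offset. Its principal transcript has 1521 bases. Uqcrh changed by -0.40 ± 0.12 (SE, adjusted p = 0.0387) with groups that overlapped, and with the offset its value was 0.02 (adjusted p = 0.899).

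The other 4 genes were not called. Uqcrfs1, the Rieske iron-sulfur protein that hands electrons to cytochrome c1, had a value of -0.27 ± 0.10 (SE, adjusted p = 0.0807), and Uqcrb, which takes part in ubiquinone binding, of -0.24 ± 0.10 (SE, adjusted p = 0.107). The core proteins Uqcrc1 and Uqcrc2, named after their values had been seen, stood at -0.01 ± 0.07 (SE, adjusted p = 0.959) and -0.05 ± 0.06 (SE, adjusted p = 0.629). Uqcrb turned to 0.17 (adjusted p = 0.0371) with the offset, and 29.1% of its windows are shared.

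Complex IV, cytochrome c oxidase, had the lowest median of the complexes, -0.45, and 9 of 12 genes were lower, with the shortest transcripts (median 594.5 bases). Cox5b (chr1:36691449-36693681, plus strand), a zinc-binding subunit on the matrix side, was at 123, 117, 111 and 122 CPM in Tyk2ΔIEC libraries. In Tyk2fl/fl libraries it ran from 139 to 216 CPM, with a median of 173, and the groups did not overlap. The log2 fold change was -0.53 ± 0.10 (SE, adjusted p = 0.00455), and -0.23 (adjusted p = 0.0249) with the offset, in which Cox5b was the 1 gene of the complex still called lower. Cox5a, which lies beside it, changed by -0.50 ± 0.13 (SE, adjusted p = 0.0188).

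Cox8a (chr19:7215153-7217616, minus strand), the small ubiquitous form of subunit VIII, was at 186, 179, 156 and 194 CPM and ran from 214 to 322 CPM, with a median of 253 in the controls. It changed by -0.53 ± 0.11 (SE, adjusted p = 0.00662) without overlap. Cox6c (chr15:35925886-35938246, minus strand), a small membrane subunit, was at 148, 134, 128 and 171 CPM and ran from 176 to 271 CPM, with a median of 215 in the controls, with a change of -0.55 ± 0.11 (SE, adjusted p = 0.00758) and no overlap. Neither was called with the offset, at -0.12 (adjusted p = 0.152) and -0.12 (adjusted p = 0.174).

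Of the paralogs, Cox6a1 changed by -0.47 ± 0.11 (SE, adjusted p = 0.0137) and Cox6b1 by -0.39 ± 0.12 (SE, adjusted p = 0.0389), both with overlapping groups. With the offset they were at -0.08 (adjusted p = 0.399) and -0.01 (adjusted p = 0.926). Cox7a2 had a value of -0.30 ± 0.10 (SE, adjusted p = 0.0529) and the muscle form Cox7a1 of -0.28 ± 0.23 (SE, adjusted p = 0.412), and neither was called. Cox7b, a subunit required for assembly, changed by -0.42 ± 0.11 (SE, adjusted p = 0.0188), and Cox7a2l by -0.26 ± 0.09 (SE, adjusted p = 0.0465). Cox7c, of which 50.4% of the windows are shared, had a value of -0.11 ± 0.11 (SE, adjusted p = 0.508) and was not called.

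Cox6b2 (chr7:4751792-4753094, minus strand), the testis form of subunit VIb, is among the lowest members. It was at 6.03, 6.59, 5.35 and 5.28 CPM in Tyk2ΔIEC and from 6.56 to 12.3 CPM, with a median of 8.14 in Tyk2fl/fl libraries, so that the groups overlapped, and the log2 fold change was -0.68 ± 0.19 (SE, adjusted p = 0.0252). In the first experiment it was at 5.78, 5.21 and 6.53 CPM in Tyk2Δ/Δ and 5.03, 5.13 and 3.90 CPM in Tyk2+/+ libraries, with every Tyk2Δ/Δ library above and a value of 0.31 ± 0.18 (SE, adjusted p = 0.329) that was not called.

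Complex V, the ATP synthase, had 8 of 17 genes lower and a median of -0.32, with a median transcript of 809 bases. Its catalytic head was not called: Atp5b (chr10:128083273-128090391, plus strand) was at 1527, 1711, 1664 and 1750 CPM in Tyk2ΔIEC and from 1350 to 1722 CPM, with a median of 1652 in Tyk2fl/fl libraries, with overlap and a log2 fold change of 0.09 ± 0.09 (SE, adjusted p = 0.512). Atp5a1, the α subunit, and Atp5c1, the γ subunit of the rotor, had values of 0.05 ± 0.08 (SE, adjusted p = 0.694) and -0.02 ± 0.07 (SE, adjusted p = 0.845).

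The central stalk held 2 called genes. Atp5e (chr2:174461072-174464105, minus strand), the ε subunit, was at 124, 115, 108 and 153 CPM in Tyk2ΔIEC libraries. Every Tyk2fl/fl library was higher, from 162 to 239 CPM, with a median of 199, and the change was -0.65 ± 0.12 (SE, adjusted p = 0.00391). Atp5d, the δ subunit, changed by -0.36 ± 0.09 (SE, adjusted p = 0.0162) with groups that overlapped. With the offset they were at -0.19 (adjusted p = 0.0683) and -0.09 (adjusted p = 0.309).

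In the membrane ring Atp5g1 (chr11:96068852-96075670, minus strand) was the gene called. It was at 69.0, 68.4, 63.7 and 69.2 CPM in Tyk2ΔIEC libraries and ran from 85.1 to 124 CPM, with a median of 96.7 in Tyk2fl/fl libraries, without overlap. The log2 fold change was -0.58 ± 0.09 (SE, adjusted p = 0.00194), and -0.19 (adjusted p = 0.0353) with the offset. Atp5g3, the higher expressed of the 3 genes, had a value of -0.37 ± 0.13 (SE, adjusted p = 0.0703), and Atp5g2 of 0.01 ± 0.09 (SE, adjusted p = 0.942). The reads of Atp5g1 and Atp5g2 come from the parts of their transcripts that are unique.

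Atp5j2, a subunit of the membrane part, changed by -0.46 ± 0.10 (SE, adjusted p = 0.0114), and Atp5o, the oligomycin-sensitivity subunit that joins head and stalk, by -0.34 ± 0.10 (SE, adjusted p = 0.0359). Of the members that the rule did not name, Atp5k, a small subunit of the membrane part, changed by -0.50 ± 0.13 (SE, adjusted p = 0.0189), Atp5mpl, another, by -0.45 ± 0.11 (SE, adjusted p = 0.0129), and Atp5h, of the peripheral stalk, by -0.32 ± 0.09 (SE, adjusted p = 0.0263). Atp5f1 and Atp5j of the same stalk had values of -0.24 ± 0.09 (SE, adjusted p = 0.096) and -0.26 ± 0.09 (SE, adjusted p = 0.0573) and were not called. Atp5l, a membrane subunit counted on few unique windows, had a value of 0.20 ± 0.11 (SE, adjusted p = 0.199). Atp5s had a value of -0.15 ± 0.10 (SE, adjusted p = 0.3) and was not called.

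**Figure D5:**
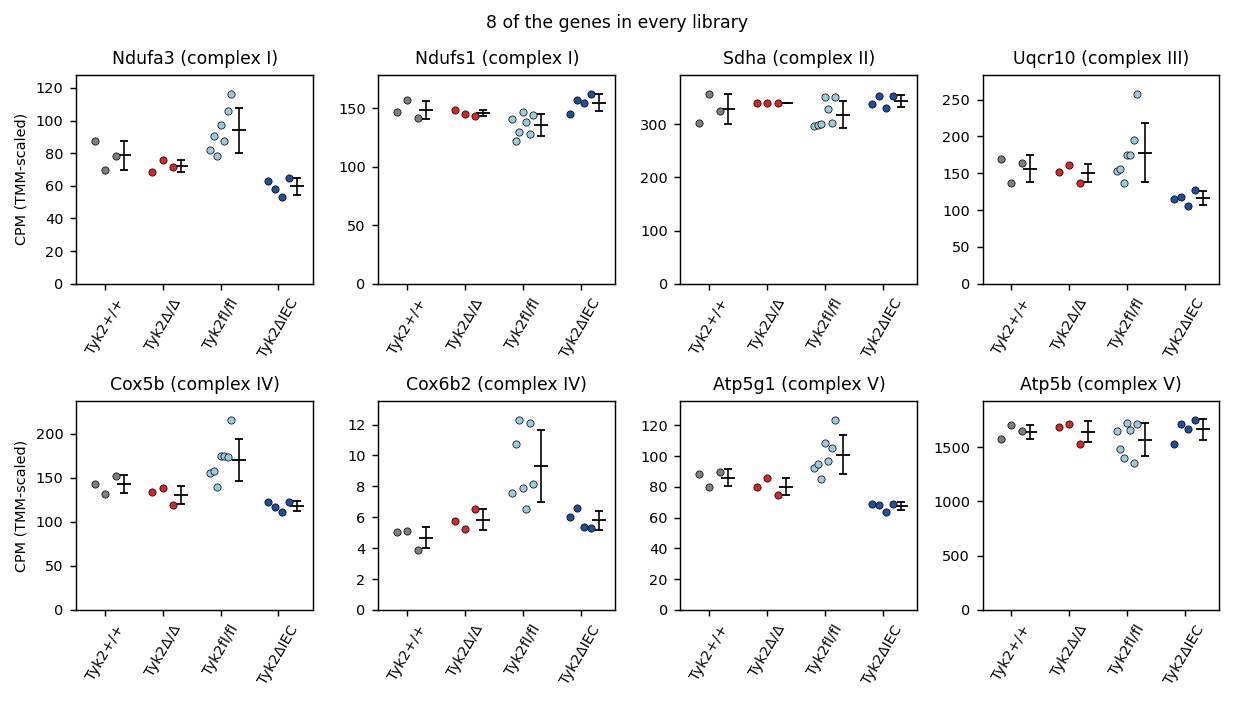
CPM of Ndufa3, Ndufs1, Sdha, Uqcr10, Cox5b, Cox6b2, Atp5g1 and Atp5b in each of the 17 libraries (points) by genotype, with group means and SDs. Ndufa3, Uqcr10, Cox5b and Atp5g1 of Tyk2ΔIEC libraries lie below all Tyk2fl/fl libraries, while Sdha and Atp5b overlap.

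The comparison of Tyk2Δ/Δ with Tyk2+/+ tumors asks what the loss of Tyk2 in all cells changes. None of the 78 members was called by edgeR among 16179 genes, against 2.13% of all genes that were lower and 0.668% that were higher. DESeq2 called 3 lower and limma voom 0. At an unadjusted p under 0.05 (edgeR), 10 members were lower and 0 higher, while 2112 of the 16179 genes were lower and 1569 higher. The share of members lower at that threshold was thus near that of all genes. The median log2 fold change was -0.13, that of all genes 0.00, and 66 members were below 0. Every Tyk2Δ/Δ library lay below every Tyk2+/+ library in 6 members and above in 1, against 14.0% of all genes that lay below and 14.8% that lay above. Without Tyk2+/+ replicate 2, whose mean member level of 6.65 was below those of replicates 1 and 3 (6.90 and 6.80), 14 members were lower. The share of all genes called in that refit is not given here, so the count cannot be set against it. Replicate 2 also had a length balance of -0.11, against 0.20 and 0.05.

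The smallest p values belonged to Cox7a2, Ndufs4 and Cox7b, none of which passed the adjustment. Cox7a2 (chr9:79755361-79759878, minus strand), the ubiquitous form of subunit VIIa, was at 247, 177 and 224 CPM in Tyk2+/+ and 162, 174 and 163 CPM in Tyk2Δ/Δ libraries. The groups did not overlap, and the value was -0.38 ± 0.12 (SE, adjusted p = 0.111). Cox7b (chrX:106015700-106022450, plus strand) was at 234, 170.0 and 211 CPM and 153, 164 and 163 CPM, with a value of -0.36 ± 0.11 (SE, adjusted p = 0.113).

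Ndufs4 (chr13:114287795-114388258, minus strand) was at 131, 94.2 and 108 CPM in Tyk2+/+ and 86.4, 86.2 and 86.6 CPM in Tyk2Δ/Δ libraries, again without overlap, with a value of -0.37 ± 0.11 (SE, adjusted p = 0.113). Ndufa5 and Atp5e, both lower in Tyk2ΔIEC tumors, had values of -0.31 ± 0.10 (SE, adjusted p = 0.124) and -0.32 ± 0.11 (SE, adjusted p = 0.148) here. The complex II genes lay between -0.08 for Sdhb and 0.04 for Sdha. In complex III, Uqcrq had -0.26 ± 0.10 (SE, adjusted p = 0.169), and in complex I, Ndufc1 had -0.28 ± 0.13 (SE, adjusted p = 0.238) and Ndufb9 -0.24 ± 0.10 (SE, adjusted p = 0.218).

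The same relation to length was seen on a smaller scale: medians of members and of other genes were -0.23 and -0.26 up to 500 bases, -0.14 and -0.12 up to 750, -0.15 and -0.09 up to 1000, and -0.07 and -0.05 up to 1500 bases. With the length offset the median of the members was -0.01 and 42 of 78 were below 0. With the length and GC offset the median was -0.04 and 55 of 78 were below 0. In that fit 11 members were lower at an unadjusted p under 0.05, a share near that of all genes (1711 of 14082). Neither offset led to a call.

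The change in Tyk2Δ/Δ minus that in Tyk2ΔIEC tumors was tested as 1 contrast over the 17 libraries. A positive value means a smaller decrease, or an increase, in Tyk2Δ/Δ tumors. Of 78 members 2 were higher and none was lower, against 2.73% of 17252 genes that were higher and 5.23% that were lower, and the median was 0.21. The share of members called higher was thus near that of all genes. DESeq2 called 5 higher and 0 lower, and limma voom 0 in either direction. At an unadjusted p under 0.05 (edgeR), 17 members were higher and 1 lower, while 1886 of the 17252 genes were higher and 2261 lower. For Atp5g1 the difference was 0.48 ± 0.13 (SE, adjusted p = 0.0385): it was at 88.5, 79.9 and 89.9 CPM in Tyk2+/+ and 79.9, 85.9 and 74.8 CPM in Tyk2Δ/Δ libraries, with overlap and a value of -0.11 ± 0.07 (SE, adjusted p = 0.419), against the decrease in Tyk2ΔIEC tumors above. For Cox6b2 it was 1.00 ± 0.29 (SE, adjusted p = 0.041). With the length offset the median difference was 0.02, and 1 member was higher (Ndufa3) and 1 lower (Cox7c). Neither Atp5g1 nor Cox6b2 was called with the offset, and no member was called without Tyk2+/+ replicate 2 or 3, Tyk2Δ/Δ replicate 1 or 2, Tyk2fl/fl replicate 6, or Tyk2ΔIEC replicate 3 or 4. Without the 3 Tyk2fl/fl libraries with high Xist 16 members were higher, and the share of all genes called in that refit is not given here.

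Both control groups carry an active Tyk2, and comparing Tyk2+/+ with Tyk2fl/fl tumors in the same fit gives the size of a difference between the 2 experiments. Litters and the floxed allele cannot be told apart in it. Depth and Xist also differed, and refits with thinned counts and without the libraries with high Xist are given further on. In the fit over all 17 libraries 1 member was higher and 1 lower, against 7.37% and 5.49% of all genes, and the median was -0.03. Cox6b2 was lower in Tyk2+/+ libraries, by -0.99 ± 0.20 (SE, adjusted p = 0.00569), so that the controls of its difference above already differed from each other. Atp5c1, named after its values had been seen, was higher, by 0.22 ± 0.07 (SE, adjusted p = 0.0427).

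The 3 Tyk2fl/fl replicates with high Xist had mean member levels of 6.69, 6.75 and 6.64 on the log2 CPM scale, the other 4 of 6.88, 6.87, 6.89 and 7.13, and the Tyk2ΔIEC libraries of 6.52, 6.47, 6.41 and 6.63. All Tyk2ΔIEC libraries were thus below all Tyk2fl/fl libraries, and nearest to the 3 with high Xist. Without these 3 libraries 59 members were lower in Tyk2ΔIEC tumors, and the share of all genes called in that refit is not given here. The 3 left out had a length balance of 0.01 to 0.11, against 0.12 to 0.49 in the other 4.

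Other genes of the pathway were taken from lists. In Tyk2ΔIEC tumors 9.71% of all genes tested were lower and 10.2% higher, and in Tyk2Δ/Δ tumors 2.13% and 0.668%. These shares stand beside the counts of every list of genes and markers below. Of the 13 mitochondrially encoded subunits, 7 passed the count filter, and 5 of them were lower in Tyk2ΔIEC tumors (median -0.73). Among them were mt-Cytb of complex III with -0.78 ± 0.19 (SE, adjusted p = 0.0144), mt-Nd2 of complex I with -0.73 ± 0.19 (SE, adjusted p = 0.0198) and mt-Co1 of complex IV with -0.77 ± 0.20 (SE, adjusted p = 0.0212). Their summed CPM were 23312 to 47008 in Tyk2fl/fl and 16860 to 24789 in Tyk2ΔIEC libraries, and with the length offset 1 was lower. Between the control groups, 3 of the 7 were also lower in Tyk2+/+ than in Tyk2fl/fl libraries (median -0.63, summed CPM 19606 to 23964 in Tyk2+/+), and 5 with the length offset. The lower level was therefore not particular to Tyk2ΔIEC libraries. These transcripts carry short poly(A) tails, and the part of the poly(A) selection in their values was not tested. In Tyk2Δ/Δ tumors 0 of 7 were called (median 0.04).

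Of 46 assembly factors tested, which build the complexes without becoming part of them, 16 were lower and 1 was higher in Tyk2ΔIEC tumors (median -0.18), and 4 and 3 with the length offset. Sdhaf1, which inserts iron-sulfur clusters into Sdhb, changed by -0.57 ± 0.10 (SE, adjusted p = 0.00392), Coa3, an early factor of complex IV, by -0.43 ± 0.08 (SE, adjusted p = 0.00547), and Uqcc3, a factor of complex III, by -0.60 ± 0.12 (SE, adjusted p = 0.00655). Of the 6 other nuclear subunits and carriers 1 was lower, the inhibitor of ATP hydrolysis Atpif1, by -0.48 ± 0.10 (SE, adjusted p = 0.0069). Cycs, cytochrome c, had a value of -0.42 ± 0.09 (SE, adjusted p = 0.057) in Tyk2Δ/Δ tumors.

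Genes beside the respiratory chain were counted by list as well. None of 13 TCA cycle genes was called in Tyk2ΔIEC tumors (median 0.03). Of 14 regulators of mitochondrial biogenesis 1 was higher, the coactivator Pprc1 with 0.31 ± 0.08 (SE, adjusted p = 0.022). Of 17 glycolysis genes 1 was higher, the phosphofructokinase gene Pfkm with 0.64 ± 0.11 (SE, adjusted p = 0.00341). Neither share exceeded the 10.2% of all genes that were higher. Of 77 mitochondrial ribosomal protein genes 40 were lower and 0 higher (median -0.28), and with the length offset 17 and 1. Of 81 cytosolic ribosomal protein genes, which are short and have no role in the mitochondrion, 63 were lower and 0 higher (median -0.40), and 13 and 2 with the offset. In Tyk2Δ/Δ tumors 0 genes of these lists and of the assembly factors were called but for the lactate exporter Slc16a3, which was lower, with a log2 fold change of -0.51 ± 0.07 (SE, adjusted p = 0.0147).

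Markers of cell types were counted beside these results. In Tyk2ΔIEC tumors 0 of 10 epithelial markers were called (median -0.01), and their summed CPM were 8926 to 14978 in Tyk2fl/fl and 10179 to 13131 in Tyk2ΔIEC libraries. Of 11 fibroblast markers 7 were lower (median -0.63, summed CPM 1478 to 2378 and 1411 to 1752), and 6 with the length offset. In Tyk2+/+ libraries 5 of the 11 were likewise lower than in Tyk2fl/fl (median -0.57, summed CPM 1290 to 1738), and 6 with the length offset. Of 9 macrophage markers 2 were lower (summed CPM 607 to 1125 and 532 to 792). Of absorptive colonocyte, goblet, T and NK, B, adipocyte and skeletal muscle markers 0 were called, 1 of 14 smooth muscle and 1 of 7 squamous markers were higher, and of 8 endothelial and 8 cycling markers each 1 was higher and 1 lower. Goblet cell markers, for instance, summed to 426 to 3029 and 1128 to 3140 CPM. The part of the fibroblast and macrophage markers in the change of the members was not tested.

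In Tyk2Δ/Δ tumors 8 of 14 smooth muscle markers were lower (median -1.14, summed CPM 386 to 595 in Tyk2+/+ and 221 to 301 in Tyk2Δ/Δ libraries), as were 4 of 6 T and NK cell markers (median -1.50), 1 of 11 fibroblast and 1 of 3 adipocyte markers, while 0 of 10 epithelial markers and 0 markers of the remaining lists were called. Among the latter, the 3 B cell markers tested had a median of -3.32, each with an unadjusted p under 0.05, and the 6 on the list summed to 4.26 to 59.4 CPM in Tyk2+/+ and 1.09 to 1.90 in Tyk2Δ/Δ libraries. The part of these marker changes in the members' values was not tested. The muscle form Cox6a2 had at most 3 counts in any library, Myh4 of skeletal muscle and Lep of adipocytes were at 0 in all 17, and the skeletal muscle and adipocyte markers summed to 6.11 to 6.58 and 6.58 to 7.12 CPM in Tyk2Δ/Δ libraries.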

How the data were processed

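RNA of colon tumors was measured in 17 libraries of 4 genotypes, grouped by the genotype in their labels. The deposited values are raw read counts per gene. The authors selected poly(A) RNA for strand-specific libraries, read single ends of 75 bases, aligned them with STAR 2.6.1a and took its gene counts, which hold reads of unique alignment. The methods name the human build, while the submitters' processing notes give GRCm38 (mm10), and the gene identifiers are of mouse. Gene classes, positions and transcript lengths came from GENCODE M21 for GRCm38, which is not the release the authors used, and 55240 of 55421 identifiers matched it when versions were left out. Total counts of 19129696 to 35427965 per library set the precision.

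Counts were filtered with filterByExpr at a minimum count of 10 and a minimum total of 15, TMM factors were set, and edgeR 4.0.16 was run (quasi-likelihood F test, R 4.3.3) with Benjamini-Hochberg adjustment over all genes of a comparison, and a gene was called at an adjusted p under 0.05. The first experiment was fitted with 6 libraries, the second with 11, and the difference and the controls with 17. Each SE is the fold change divided by the root of its F value. CPM were scaled by TMM over the 17 libraries, and log2 CPM had a prior count of 2. The length of a gene is that of its principal transcript. Windows of 75 bases of each member were compared with all other annotated transcripts, not with the genome. The steps were tested on simulated data.

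The members, lists and rules were chosen with earlier results of these data known. Single members were named by rule: the 3 of each complex with the smallest p in each comparison but that of the controls, all Sdh genes, paralogous subunits, and the highest and lowest of each complex per length, 40 in all. Genes of lists were named where they were among the 3 smallest p of a list. Alternatives were DESeq2 1.42.0, limma voom (limma 3.58.1), other scalings and filters, other gene sets, thinning, the replicate block and leaving out libraries. Offsets per library for transcript length and for length and GC content (loess, span 0.3) were chosen after the data had been seen. Promoters of RefSeq for GRCm38.p6 were searched with Python 3.11.15. Reads per exon were not analysed here, and values of some genes are left out of the text.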

Additional observations from a re-analysis of the deposited data

Results flagged for a closer look

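In groups of 4 to 10 libraries a value was marked where its gap to the nearest other library was large for the range of the group (Dixon's criterion at 95%). Of the 92 groups tested, chance alone marks about 1 in 20. In Tyk2fl/fl libraries, replicate 7 was marked as the highest for Atp5g3 (782 CPM, others 435 to 581), Cox5a (498, others 296 to 366), Cox6b1 (371, others 230.0 to 289), Ndufa11 (94.1, others 60.8 to 69.4), Ndufs4 (126, others 88.8 to 103), Sdhc (262, others 171 to 209) and Uqcrq (293, others 158 to 216). It is also the library with the highest balance of short over long transcripts, 0.49, a measure taken over other genes, and the part of this balance in its values was not tested. Replicate 6 was marked for Ndufa4l2, with 3.70 CPM and the others at 1.12 to 2.07.

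In Tyk2ΔIEC libraries, replicate 4 was marked as the highest for Cox7a2 (174 CPM, others 132 to 136) and for Ndufs4 (96.2, others 73.5 to 74.98), and replicate 3 as the lowest for Atp5g1 (63.7, others 68.4 to 69.2). Both Cox7a2 and Ndufs4 also belong to the members with the smallest p in Tyk2Δ/Δ tumors.

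The change differed between the experiments, by the contrast over 17 libraries (edgeR), for Cox6b2, with a difference of 1.00 on the log2 scale (adjusted p = 0.0410), and for Atp5g1, with 0.48 (adjusted p = 0.0385). Both calls depend on single libraries and on the processing. They are 2 of 78 members, a share near the 2.73% of all genes called higher in that contrast.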

How the results depend on the processing

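In Tyk2ΔIEC tumors the 50 members called lower became 46 to 59 under DESeq2, limma voom, other scalings, filters and gene sets, all 17 libraries, thinning to 19129696 counts and without the 3 Tyk2fl/fl libraries with high Xist. They became 7 with the length offset and 8 with the length and GC offset, both chosen after the data had been seen, and 0 over 2-fold. Single libraries left out gave 25 to 56. In this section the share of all genes called in each refit is not given, so the counts cannot be set against it. The 1 called higher became 0 under limma voom, upper-quartile scaling, no filter, without ribosomal, mitochondrial and immunoglobulin genes, with protein-coding genes only, without the libraries with high Xist and over 2-fold, 5 and 6 with the offsets, and 0 to 1 without single libraries. The median of -0.365 became -0.03667 and -0.03763 with the offsets and ran from -0.43 to -0.31 without single libraries. Uqcrb reversed to 0.17 (adjusted p = 0.0371) and 0.18 (adjusted p = 0.0202) with the offsets, and Uqcrh to 0.015 (adjusted p = 0.899) and 0.0093 (adjusted p = 0.936). The part of RNA quality, library preparation and genotype in the length balance was not tested.

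In Tyk2Δ/Δ tumors DESeq2 called 3 members lower, single libraries left out gave 0 to 14 lower and 0 higher, and every other setting gave 0. The median of -0.13 became -0.01133 with the length offset and -0.03934 with the length and GC offset, and ran from -0.19 to -0.06 without single libraries.

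For the difference between experiments, 2 members higher became 5 under DESeq2, 0 under limma voom, 5 under upper-quartile scaling, 7 with library totals, 1 without a filter, 4 with the stricter filter, 4 with protein-coding genes, 16 without the libraries with high Xist, 1 and 0 with the offsets, 0 over 2-fold, and 0 to 6 without single libraries. Members lower were 1 with either offset. The median became 0.02141 and -0.01588 with the offsets, and 0.14 to 0.32 without single libraries.

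For Tyk2+/+ against Tyk2fl/fl, 1 member lower became 4 under DESeq2, 5 under upper-quartile scaling, 6 with library totals, 4 with the stricter filter, 4 with protein-coding genes, 17 without the libraries with high Xist, 4 when thinned, 5 and 5 with the offsets, 0 over 2-fold, and 0 to 8 without single libraries. The 1 higher became 0 under upper-quartile scaling, no filter, without ribosomal, mitochondrial and immunoglobulin genes, with protein-coding genes, without the libraries with high Xist, when thinned and over 2-fold, 5 and 7 with the offsets, and 0 to 3 without single libraries. The median ran from -0.12 to 0.03 without single libraries.

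Replicate numbers 1 to 3 occur in both groups of the first experiment and 1 to 4 in both groups of the second. Numbers 5 to 7 occur in Tyk2fl/fl libraries alone. The shared numbers do not pair the libraries. Correlations of deviations between libraries of the same number were -0.08, -0.08 and 0.00 in the first experiment. In the second they were -0.39, -0.10, 0.08 and 0.00. With the replicate block 28 members were lower and 0 higher in Tyk2ΔIEC tumors, 0 in Tyk2Δ/Δ tumors and 1 in the difference. In the second experiment Tyk2fl/fl replicates 5, 6 and 7 each form a block of their own and add nothing to the contrast. The block fit therefore sets replicates 1 to 4 of both groups against each other. Tyk2fl/fl replicates 1 to 3 among them are those with high Xist. The median in Tyk2ΔIEC tumors was -0.25 in this fit. The part of the unused libraries in these shifts was not tested.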
